A study of Mus musculus with 18 samples.

Results

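Heat shock in immortalized mouse embryonic fibroblast (MEF) cells that carried a control virus is described here across all measured genes, from 6 of the 18 arrays of the series. The members are the 3 arrays of SCR cells held at 42 °C for 1 h in a water bath (HS) and the 3 arrays of SCR cells kept at 37 °C (Cont). SCR cells had been infected for 2 h with adenovirus expressing a scrambled RNA and then held for 70 h in normal medium, so both groups carry the virus and differ only in the heat. Cells whose virus instead carried a hairpin to knock down HSF1 (HSF1-KD), or the mitochondrial DNA-binding protein SSBP1 (SSBP1-KD), were heated in the same way, again with 3 HS and 3 Cont arrays each, and these 12 arrays serve here to ask whether a change in SCR cells was seen again. All cells came from 1 immortalized stock of ICR embryos, and nothing says that the 3 arrays of a group came from separate cultures, so that p-values measure the spread between arrays, which may be technical. RNA was read on Affymetrix Mouse Gene ST arrays, whose probes lie along each transcript, as log2 signals. A gene is called raised or lowered at a limma adjusted p under 0.05, and a difference of log2 signals, HS minus Cont, is written as a log2 fold change.

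Heat shock factor 1 (HSF1) is the transcription factor that binds heat shock elements and switches on chaperone genes when proteins unfold. At the same time transcription of many other genes slows, splicing is disturbed, and RNA polymerase II can run past the ends of genes into the DNA beyond. RNAs that are made and lost quickly show such a slowdown first. MicroRNAs (miRNAs) are cut in steps from long primary transcripts by Drosha with Dgcr8 and then by Dicer1, and most act through the short seed near their 5′ end. Small nucleolar RNAs (snoRNAs) are trimmed out of introns and guide the modification of ribosomal RNA.

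The arrays were even, with medians of 7.8954 to 7.9119 and correlations of at least 0.9952 within the groups. Of 14 fibroblast markers, 13 lay above the 90th percentile of olfactory receptor genes in Cont (6.91), with a median of 10.8 in HS and 10.8 in Cont. That percentile is a loose floor, since 7 of 7 epithelial, 5 of 6 endothelial, 5 of 6 muscle, 2 of 4 adipocyte and 4 of 5 neural markers also lay above it, with list medians of 7.11 to 7.85 in HS and 7.12 to 7.84 in Cont. None of these was called. Of 6 leukocyte markers, Cd68 (0.35), a lysosomal protein also made outside macrophages, and Cd3e (1.33) were raised, and Ptprc, Adgre1, Csf1r and Itgam were not called, with means of 6.15 to 6.94 in HS and 6.18 to 6.92 in Cont. As points of scale, the chaperone gene Hspa1a rose by 4.31 on the log2 scale, Hspd1 by 0.88, Atf3 by 2.63 and Fos by 2.15.

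Of 19938 gene symbols, 1663 were lowered (8.34%) and 1522 were raised (7.63%), with a median log2 fold change of -0.01 over all. Past 1.5-fold, 129 were lowered (0.647%) and 118 raised (0.592%). The falls were unevenly spread over kinds of RNA: of 297 miRNA genes 80 were lowered (26.9%) and 4 raised, of 53 snoRNA genes 14 were lowered (26.4%) and 4 raised, and of 18553 protein-coding genes 1511 were lowered (8.14%) and 1480 raised (7.98%). Among the 129 falls past 1.5-fold were 44 miRNA genes, 12 snoRNA genes, 9 long noncoding RNA genes and 64 protein-coding genes, 18 of them histones of the replication-dependent kind.

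The mature miRNAs of the most lowered miRNA genes are shown because several of them share a seed. Sequences are from RefSeq (GRCm38.p6), with the seed, bases 2 to 8, in capitals. The arrays read the locus as a whole and do not tell the mature miRNA, its hairpin and its primary transcript apart, and the column used to purify the RNA keeps long RNA better than short RNA.
miR-15b-5p (chr3:69009775-69009796, plus strand): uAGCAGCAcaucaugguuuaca
miR-15a-5p (chr14:61632075-61632096, minus strand): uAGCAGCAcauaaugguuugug
miR-16-5p of Mir16-2 (chr3:69009918-69009939, plus strand): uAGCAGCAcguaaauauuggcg
let-7c-5p of Mirlet7c-1 (chr16:77599672-77599693, plus strand): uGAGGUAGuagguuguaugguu
let-7d-5p (chr13:48536078-48536099, minus strand): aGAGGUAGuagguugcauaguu
let-7e-5p (chr17:17830366-17830387, plus strand): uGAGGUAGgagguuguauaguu
miR-98-5p (chrX:151913229-151913250, plus strand): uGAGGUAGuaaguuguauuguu
miR-301a-3p (chr11:87113054-87113076, plus strand): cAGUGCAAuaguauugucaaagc
miR-130a-3p (chr2:84741116-84741137, minus strand): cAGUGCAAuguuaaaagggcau
miR-19a-3p (chr14:115044048-115044070, plus strand): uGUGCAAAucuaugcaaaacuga
miR-99a-5p (chr16:77598940-77598961, plus strand): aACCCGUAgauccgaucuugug
miR-125b-5p of Mir125b-1 (chr9:41581940-41581961, plus strand): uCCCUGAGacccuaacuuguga
miR-181b-5p of Mir181b-1 (chr1:137966650-137966673, plus strand): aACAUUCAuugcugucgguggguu
miR-186-5p (chr3:157544285-157544306, plus strand): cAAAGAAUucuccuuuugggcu

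Among the deepest falls was that of Mir15b, a member of the miR-15/16 family, which is known to restrain cyclins and Bcl2. Its log2 signals were 4.61, 4.61 and 4.63 in HS, against 7.60, 7.70 and 7.60 in Cont, so that the groups stood far apart and the HS arrays lay below the olfactory receptor median of 5.62. Its log2 fold change was -3.02 (standard error 0.18, adjusted p = 4.33e-08), and since the HS level is at background the size of the fall is only a lower limit. Mir16-2, cut from the same transcript, had 5.59, 5.67 and 5.44 in HS and 7.07, 7.13 and 6.77 in Cont (log2 fold change -1.42), and the paralogous locus on chromosome 14 fell as well, with -1.94 at Mir15a and -0.87 at Mir16-1. Of the 6 measured miRNA genes with the seed AGCAGCA, 4 were lowered, with a median of -1.14.

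Mir186 was at 5.13, 5.14 and 5.41 in HS and 8.09, 8.05 and 7.76 in Cont (log2 fold change -2.74, adjusted p = 7.57e-07). Mir181b-1 was at 5.67, 5.95 and 5.45 in HS and 7.94, 8.18 and 8.35 in Cont (-2.47, adjusted p = 3.44e-07). Mir145a, which smooth muscle and fibroblasts make from one transcript with Mir143, was at 6.02, 6.05 and 5.87 in HS and 8.15, 8.32 and 8.32 in Cont (-2.28, adjusted p = 3.35e-10). In none of these genes did a HS array reach a Cont array, but the largest falls were named only where this held. Of all 19938 symbols, 6851 had groups that did not overlap, in either direction.

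The let-7 family, which holds back growth genes in differentiated cells, was hit broadly. Of 9 measured miRNA genes with its seed GAGGUAG, 7 were lowered and none raised, with a median log2 fold change of -0.80. Mirlet7c-1 had 4.86, 4.78 and 5.27 in HS and 6.75, 6.87 and 6.82 in Cont (-1.84), Mirlet7d -1.44, Mirlet7e -1.40 and Mir98 -1.37. The brightest of these, Mirlet7e, was at 7.78, 7.81 and 7.61 in HS against 9.32, 9.0 and 9.08 in Cont, above the 90th percentile of olfactory receptor genes in every array.

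For several other seeds all or most genes were lowered. All 3 genes with ACCCGUA (Mir99a, Mir99b, Mir100), all 3 with CCCUGAG (Mir125a, Mir125b-1, Mir125b-2), all 3 with CAGUGCA (Mir148a, Mir148b, Mir152) and all 3 with GCAGCAU (Mir103-1, Mir103-2, Mir107) were lowered, as were 4 of 6 with ACAUUCA (the miR-181 family). Of the 3 genes with AGUGCAA, Mir301 and Mir130a were lowered (-1.99 and -1.68). Not every seed did so: among the 4 genes with GGCAGUG, the miR-34 and miR-449 family, none was called and the median was 0.04, and among 3 with AGGUAGU, the miR-196 family, none was called, with a median of -0.03. Others were mixed, with 3 of 6 genes lowered for AAAGUGC, 2 of 6 for AUUGCAC and 1 of 3 for GGAAGAC. The seed groups are not independent, since Mir99b and Mir125a lie in 1 cluster, and Mir100 and Mir125b-1 in 1 host gene, Mir100hg. The counts by seed are read against the 26.9% of all miRNA genes that were lowered.

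**Figure D1:**
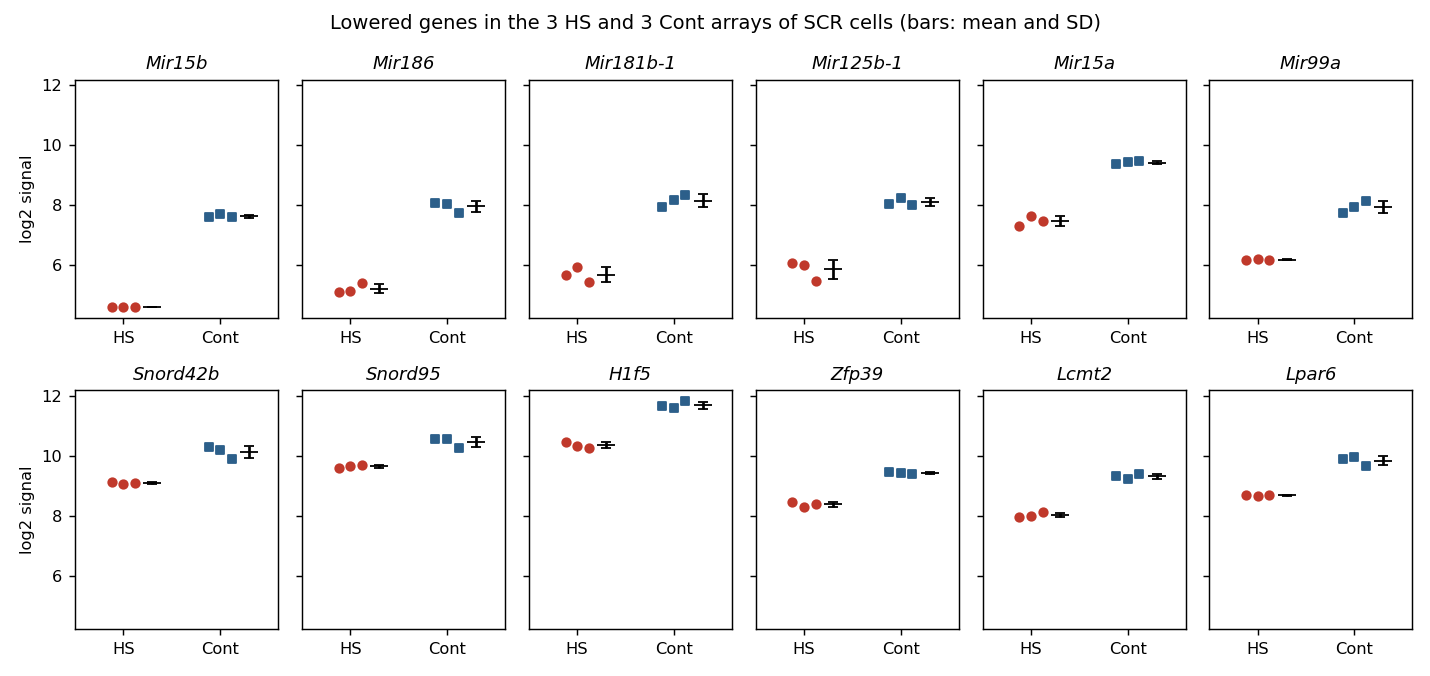
Log2 signal of 12 lowered genes in each SCR array, with HS left (circles) and Cont right (squares), and the mean and SD of each group beside its points. In every panel the 3 HS arrays lie below the 3 Cont arrays, with log2 fold changes of -3.02 for Mir15b and -0.82 for Snord95. The largest falls were named only where the groups did not overlap.

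The lowered miRNA genes had low to middling levels. Of the 44 genes lowered past 1.5-fold, 9 in HS and 24 in Cont lay above the 90th percentile of olfactory receptor genes, and their median was 5.63 in HS against 6.94 in Cont. Many thus ended at the level of genes that fibroblasts do not express, and their log2 fold changes, from -3.02 to -0.59, are then limited by that floor.

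Of clusters of miRNA genes no more than 10 kb apart, 21 held a lowered member, and 11 of these, mostly pairs of genes, were lowered throughout. Clusters without a lowered member were not counted, and 26.9% of all miRNA genes were lowered. Members of 1 cluster differed in the size of their fall. In the miR-17-92 cluster, a well-known oncogenic locus, 4 of 5 measured members were lowered, with -2.10 at Mir19a, -1.78 at Mir18, -1.22 at Mir19b-1 and -0.76 at Mir20a, while Mir17 was at -0.22 and was not called. The long noncoding transcript Mir17hg, from which the cluster is cut, was at 6.72, 6.76 and 6.55 in HS and 7.84, 7.73 and 7.51 in Cont (-1.01, adjusted p = 8.03e-06). In the large imprinted cluster that runs from Mir379 to Mir369, by contrast, 4 of 30 members were lowered, with values of -0.66 to 0.13.

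Most lowered miRNA genes sit inside longer genes, and the host genes that could be counted mostly did not fall with them. The tables place 46 of the 80 within a gene of the same strand, and 38 of these have a host that was measured. Over these 38 pairs the median log2 fold change was -0.62 for the miRNA genes and -0.03 for the hosts, against -0.01 for all symbols. In 36 pairs the miRNA gene had the lower value. The miRNA genes were picked because they were lowered and the hosts were not picked by their values, which by itself favours this order. Of the 30 different hosts 4 were lowered, 3 raised and 23 not called, against 8.34% lowered and 7.63% raised among all symbols. Mir186 lies in Zranb2, a splicing factor gene (-0.15, not called), Mir301 in Ska2, a kinetochore gene (0.00), Mir98 in the ubiquitin ligase gene Huwe1 (0.02), Mir7-1 in Hnrnpk (-0.03), and Mir25, Mir93 and Mir106b in the replication gene Mcm7 (-0.02). Mir361, Mir103-1 and Mirlet7g fell while their hosts Chm (0.29), Pank3 (0.34) and Wdr82 (0.22) rose. Hosts of unknown strand were left out of these counts, among them Smc4, whose span holds Mir15b and Mir16-2. Smc4 was at 11.94, 11.94 and 11.97 in HS and 12.02, 11.96 and 12.02 in Cont (-0.05, adjusted p = 0.714). Mir17hg, which fell as described above, is not in these counts either, nor are hosts that were not measured, such as Ftx and Mirg.

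**Figure D2:**
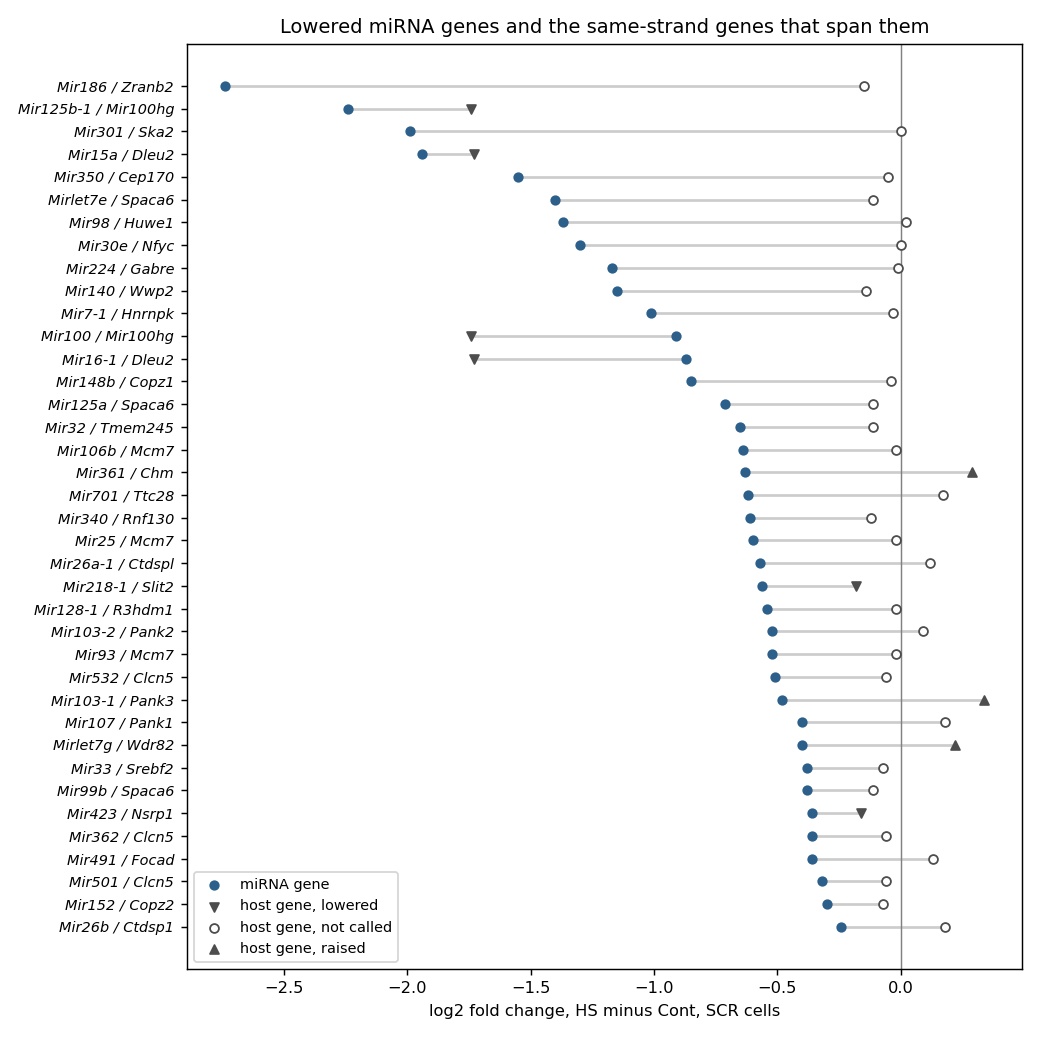
Log2 fold change (HS minus Cont, SCR cells) of 38 lowered miRNA genes, filled circles, and of the measured same-strand gene that spans each, grey symbols by call, with 1 row per pair. Most hosts sit near 0 (median -0.03) while the miRNA genes, which were picked as lowered, reach -2.74.

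The hosts that did fall include long noncoding RNAs, besides the coding genes Slit2 (-0.18) and Nsrp1 (-0.16). Mir100hg, the host of Mir125b-1 and Mir100, was at 8.96, 9.02 and 8.91 in HS and 10.63, 10.79 and 10.69 in Cont (log2 fold change -1.74, standard error 0.06, adjusted p = 2.43e-10). Dleu2, the host of Mir15a and Mir16-1, was at 2.56, 2.83 and 3.30 in HS and 5.08, 3.67 and 5.15 in Cont. Its adjusted p of 0.0284 was not kept when single arrays were left out, and all its values lie under the olfactory receptor median. Mir99ahg ran the other way from the miRNAs it carries: it was at 9.89, 10.03 and 10.00 in HS and 8.96, 8.97 and 8.99 in Cont (1.00, adjusted p = 3.49e-07), while Mir99a and Mirlet7c-1 were at -1.76 and -1.84. With the mean of its probe sets in place of the brightest, Mir99ahg was at 0.20 (adjusted p = 0.0975), so its probe sets did not move alike.

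The genes of the miRNA machinery, chosen after their values were seen, were mostly not called. Dgcr8, which recognises the primary transcript together with Drosha, was at 9.46, 9.37 and 9.47 in HS and 10.05, 10.05 and 10.08 in Cont (-0.63, adjusted p = 3.76e-06). Drosha itself (-0.06), the exporter Xpo5 (-0.10) and the Dicer partners Tarbp2 (-0.19) and Prkra (-0.16) were not called. Dicer1 (0.13), Ago1 (0.16) and Ago3 (0.28) were raised, and Ago2 (0.11) and Ago4 (0.17) were not called. Whether Dgcr8 has a part in the miRNA changes was not tested.

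SnoRNA genes moved in both directions. Snord14e, a box C/D snoRNA that lies in the constitutive chaperone gene Hspa8, was at 12.97, 13.01 and 13.17 in HS and 10.36, 10.45 and 10.06 in Cont (log2 fold change 2.76, adjusted p = 6.6e-11). Hspa8 itself was at 14.01, 14.06 and 14.05 in HS and 13.88, 13.86 and 13.81 in Cont (0.19). The highest mean signal of any symbol was 14.5, and whether the rise of Hspa8 is limited by the top of the range was not tested. Snord37, in the elongation factor gene Eef2 (0.08, not called), was at 10.08, 9.88 and 10.24 in HS and 8.87, 8.95 and 8.56 in Cont (1.27), and Snora23 in Ipo7 was raised by 0.53. The HS arrays of Snord14e and Snord37 all lay above their Cont arrays, which the rule for naming the largest rises required. Probes in an intron also read the unspliced host transcript, so the snoRNA and its precursor cannot be told apart.

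The 14 lowered snoRNA genes reached -1.52, and 12 of them passed 1.5-fold. Snord42b was at 9.12, 9.08 and 9.10 in HS and 10.30, 10.19 and 9.91 in Cont (-1.03), and with Snord42a (-0.79) it lies in the ribosomal protein gene Rpl23a (-0.14, not called). Snord96a (-1.05) and Snord95 (-0.82) lie in Rack1, and Snord61 (-1.52) in Rbmx, which was itself lowered (-0.28). Snord73a (-0.78) lies in Rps3a1 (0.09), and Snora75 (-0.90) in Ncl (-0.19), neither of which was called. Snhg5, a host of snoRNAs with no protein, was at 9.23, 9.15 and 8.98 in HS and 9.91, 9.92 and 9.70 in Cont (-0.72). The tables give no strand for snoRNA genes, so hosts here are the genes that span them.

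**Figure D3:**
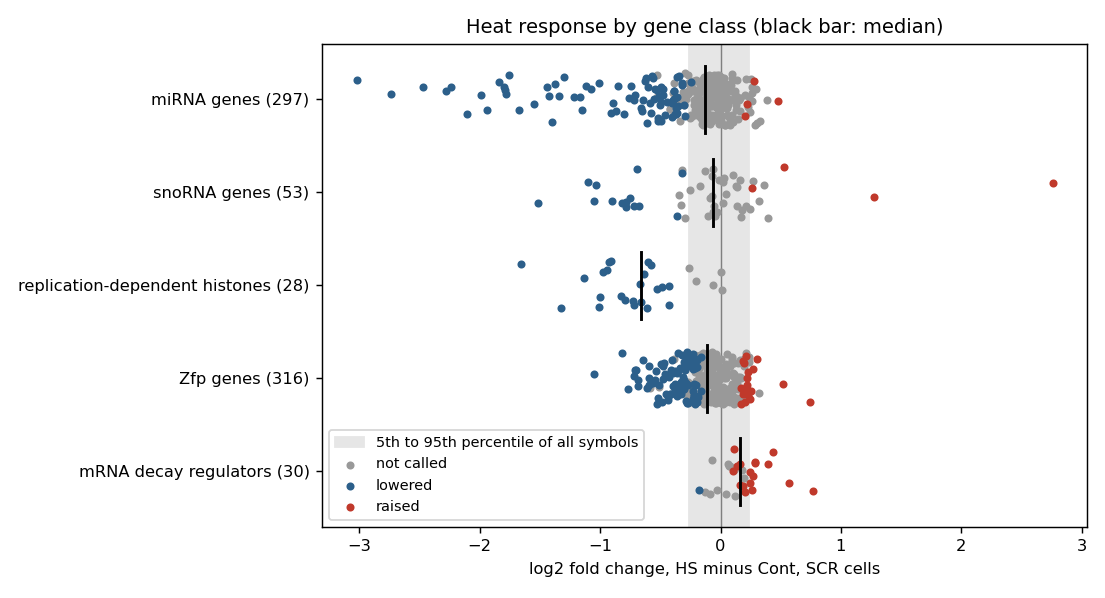
Log2 fold change (HS minus Cont, SCR cells) of every measured member of 5 gene classes, 1 point per gene coloured by call, with the class median as a black bar and the range from the 5th to the 95th percentile of all symbols shaded. The miRNA genes and the histones reach far left of the shaded range, and the mRNA decay regulators lie mostly right of 0, with a median of 0.16.

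Replication-dependent histone genes, which are transcribed in S phase and give short mRNAs without a poly(A) tail, were lowered almost as a group. Of 28 measured, 23 were lowered and none raised, 18 of them past 1.5-fold, with a median of -0.66. H1f5, a linker histone, was at 10.48, 10.32 and 10.28 in HS and 11.66, 11.58 and 11.82 in Cont (-1.33, adjusted p = 1.21e-06). H2bc14 was at 11.72, 11.59 and 11.61 in HS and 12.58, 12.59 and 12.51 in Cont (-0.91, adjusted p = 4.24e-08). Copies of these genes are nearly identical and their probes can read one another, so the number of separate genes that fell is uncertain. Of 9 replication-independent variants, which are made outside S phase, H2ax was lowered (-0.32) and the others were not called (median 0.08). DNA replication genes had 3 of 33 members lowered (9.09%) and 3 raised (9.09%), with Mcm3 at 0.28, Mcm6 at 0.22 and Pola2 at -0.18. These shares are close to the 8.34% lowered and 7.63% raised among all symbols.

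Zinc finger genes named Zfp and a number, many of them repressors of the KRAB kind, made up the largest group of falls among protein-coding genes. Of 316 measured, 92 were lowered (29.1%) and 19 raised, against 8.34% and 7.63% of all symbols, with a median of -0.11. Zfp39 was at 8.47, 8.29 and 8.40 in HS and 9.47, 9.42 and 9.41 in Cont (-1.05, adjusted p = 3.73e-07). Zfp455 (-0.81), Zfp953 (-0.77) and Zfp418 (-0.72) followed, and 13 in all passed 1.5-fold. Zfp367, a regulator of cell-cycle genes, ran against them at 0.74 (adjusted p = 2.81e-07). The ZBTB transcription factors, a related zinc finger group, leaned the other way, with 8 of 39 raised, led by Zbtb11 (0.51), and 4 lowered.

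Other protein-coding falls included genes that modify or trim transfer RNA, which were picked after their values were seen and are no test of that group. Lcmt2, which catalyses a late step of wybutosine synthesis in phenylalanine tRNA, was at 7.98, 8.01 and 8.12 in HS and 9.32, 9.23 and 9.40 in Cont (-1.28, adjusted p = 6.33e-09). Trmt5 (-0.66, adjusted p = 5.87e-06), Trmt12 (-0.66, adjusted p = 3.38e-05) and Tyw3 (-0.28, adjusted p = 0.0195) of the same pathway were lowered, and Tyw1 (-0.12) and Tyw5 (0.04) were not called. Rpp38, a subunit of the RNase P that trims tRNA 5′ ends, was at 9.92, 9.70 and 9.83 in HS and 10.86, 10.90 and 10.66 in Cont (-0.99, adjusted p = 6.5e-07). The mitochondrial prolyl-tRNA synthetase gene Pars2 was at -0.64. Cytosolic aminoacyl-tRNA synthetases had 2 of 18 lowered (11.1%), with Qars at -0.28, and 1 raised. That share is no higher than the 14.2% lowered in the brightest of 4 equal signal bins, where the list's median signal lies.

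Receptors and signalling genes were also among the falls. Lpar6, a receptor for lysophosphatidic acid, was at 8.71, 8.67 and 8.70 in HS and 9.89, 9.97 and 9.67 in Cont (-1.15, adjusted p = 6.6e-08), and of 10 lysophosphatidic acid and sphingosine phosphate receptors 4 were lowered and none raised, against 8.34% lowered among all symbols, the others being S1pr2 (-0.27), S1pr1 (-0.24) and S1pr5 (-0.21). Lfng, which adds sugar to Notch, was at 9.43, 9.44 and 9.45 in HS and 10.37, 10.43 and 10.49 in Cont (-0.99). Of the other 20 Notch pathway genes only Rbpj was called (0.20). Nfkbia, the inhibitor of NF-κB, was at 10.21, 10.41 and 10.21 in HS and 10.88, 10.88 and 10.90 in Cont (-0.61), and the glycan sulphation genes Chst12 and Ndst2 were at -0.84 and -0.66. Nfkbia, Chst12 and Ndst2 were chosen after their values were seen.

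A few cell-cycle genes were lowered. Ccnf, the cyclin F of the S and G2 phases, was at 10.32, 10.19 and 10.25 in HS and 10.96, 11.04 and 11.02 in Cont (-0.76, adjusted p = 4.57e-08), and Cdkn3 (-0.70) and the mitotic kinase gene Haspin (-0.59) also fell; these 3 were chosen after their values were seen. Of 27 mitotic genes 5 were lowered (18.5%), led by Mki67 (-0.35) and Cdc20 (-0.31), and 1 raised, with a list median of -0.07. The background was 8.34% lowered among all symbols and 14.2% in the brightest of 4 equal signal bins, where the list's median signal lies. In bulk RNA fewer cells in a cycle phase and less RNA per cell cannot be told apart.

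Several metabolic and secretory lists had falls of small size. Of 30 genes for endoplasmic reticulum chaperones and the unfolded-protein response 8 were lowered (26.7%) and none raised, with Xbp1 at -0.45 (adjusted p = 1.02e-05), Derl2 at -0.34 and Dnajc3 at -0.28. Of 24 lysosomal genes 7 were lowered (29.2%) and none raised, the largest fall being -0.24 at Gusb. Of 25 hypoxia and glycolysis genes 6 were lowered and 1 raised, among them Hk2 (-0.45) and the glucose transporter gene Slc2a1 (-0.42). Solute carriers as a whole had 50 of 323 lowered (15.5%) and 13 raised. Mitochondrial ribosomal proteins had 11 of 76 lowered, down to -0.34 at Mrps18b, and 2 raised. These shares are read against the 8.34% of all symbols that were lowered, and against 4 equal signal bins. The endoplasmic reticulum, lysosomal and glycolysis lists have their median signal in the brightest bin, where 14.2% were lowered. The median of the mitochondrial ribosomal proteins lies in the next bin, where 12.9% were lowered, close to their own 14.5%. That of the solute carriers lies in a dimmer bin with 4.51% lowered. The 8 endoplasmic reticulum genes became 5 without SCR HS array 2 or 3 and with the 6 SCR arrays alone, and 4 by the methods' t-test. The 50 solute carriers became 33 without SCR Cont array 2 and with the 6 SCR arrays alone, and 30 by the methods' t-test.

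Several fibroblast and housekeeping lists held few calls or none. No collagen of 44, no small leucine-rich proteoglycan of 11 and no TRiC or prefoldin subunit of 14 was called, against background shares of 8.34% lowered and 7.63% raised. Proteasome subunits had 2 of 39 lowered, with Psmb6 at -0.21, and cytosolic ribosomal proteins 1 of 60. That one was Rpl12, at 8.96, 9.0 and 9.03 in HS and 9.94, 10.03 and 9.71 in Cont (-0.90, adjusted p = 6.48e-07).

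Smaller lists held a few calls in both directions, to be read against 8.34% lowered and 7.63% raised among all symbols. Of 19 clock genes, the repressors Ciart (-0.52) and Per1 (-0.49) and the receptor gene Nr1d1 (-0.32) were lowered, and 3 were raised, with Nr1d2 at 0.37 and Clock at 0.22. Cirbp, whose RNA is known to fall with warming and rise with cold, was at -0.45 (adjusted p = 0.000564), Srsf5 was at -0.30, and the splicing regulators Tra2a and Tra2b were at 0.38 and 0.23. Of 33 Mediator subunits 4 were lowered, with Med18 at -0.65, and 4 raised, with the kinase module genes Cdk19 (0.38), Med13 (0.32) and Med13l (0.32). Of 37 HOX genes, Hoxb5 (-0.51), Hoxc5 (-0.41) and Hoxc4 (-0.21) were lowered, a share of 8.11% that is close to the background.

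Beyond chaperones and immediate-early genes, the list with the highest share of rises was that of mRNA decay regulators. Of 30 genes 17 were raised (56.7%) and 1 lowered, with a median of 0.16, against 7.63% raised among all symbols and 15.9% in the brightest of 4 equal signal bins, where the list's median signal lies. Zfp36, which binds AU-rich elements and brings mRNAs to decay, was at 9.35, 9.37 and 9.52 in HS and 8.56, 8.62 and 8.76 in Cont (0.77, adjusted p = 5.85e-06). Zfp36l1 (0.57), the decapping genes Dcp1a (0.43) and Dcp2 (0.29), and Rc3h1, which encodes Roquin (0.40), also rose. The list was drawn up with earlier results of these data known, and Zfp36 is itself an early-response gene.

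Regulators of transcription and of growth-factor signals were also among the rises. Klf6 was at 11.46, 11.55 and 11.49 in HS and 10.38, 10.46 and 10.27 in Cont (1.13, adjusted p = 6.8e-10), and 5 of 17 KLF genes were raised and none lowered, with Klf4 (0.53), Klf10 (0.52), Klf7 (0.41) and Klf5 (0.36). Of 14 ID proteins and feedback genes of BMP signalling 5 were raised, led by Smad7 (0.90) and Id2 (0.73). Skil, a Smad repressor, was at 0.61. Of 74 chromatin modifiers 15 were raised (20.3%), led by Kdm7a (0.40) and Tet3 (0.37), and 6 were lowered, led by Brd8 (-0.38). The 15 became 8 with the 6 SCR arrays alone and 5 by the methods' t-test. Of 115 F-box and kelch genes 19 were raised, with Fbxl14 at 0.58, and 9 lowered. Of 27 ATF4 targets 8 were raised, the largest being Mthfd2 (0.54), Cebpb (0.49) and Sesn2 (0.47), and 1 lowered. These counts are read against 7.63% raised among all symbols, and 15.9% in the brightest of 4 equal signal bins, where the chromatin and ATF4 lists have their medians.

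The largest rises by the naming rule, outside chaperones and immediate-early genes, were in genes with mean log2 signals of 6.90 (Clec4a1) to 13.05 (Snord14e) in HS and 5.86 (Clec4a1) to 10.29 (Snord14e) in Cont. Best2, a chloride channel gene of secretory epithelia, was at 9.45, 9.32 and 9.37 in HS and 7.23, 7.59 and 7.29 in Cont (2.01, adjusted p = 3.39e-07). Cd3e, a T cell receptor component, was at 9.07, 9.16 and 9.24 in HS and 7.74, 7.94 and 7.81 in Cont (1.33), while the log2 signals of the 6 leukocyte markers, Cd3e included, summed to 44.5 to 45.3 in HS and 43.0 to 43.2 in Cont. Cd3e (1.33) and Cd68 (0.35) make up nearly all of that gap, and the other markers were at -0.04 to 0.09. Whether another cell type has a part in it was not tested. Vaultrc5 (1.4), Cyp2c55 (1.32), Slc5a5 (1.19), Lrrn4cl (1.16), Ctsk (1.07), Ephx3 (1.05), Tcim (1.05), Clec4a1 (1.04) and Cspg5 (1.02) completed the set with Snord14e, Snord37, Uspl1 and Mir99ahg.

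One feature shared by many raised dim genes was a bright gene just upstream, a pattern looked for after the values were seen. Protein-coding genes were called dim below a mean log2 signal of 8.21 and bright above 9.85. Of 7059 dim genes 2.72% were raised. Where the nearest upstream gene was bright, lay on the same strand and ended within 5 kb, 31 of 140 were raised (22.1%). The share was 11.4% (28 of 245) at 5 to 20 kb, 5.68% (13 of 229) at 20 to 50 kb and 1.81% (14 of 775) beyond 50 kb. Within 5 kb it was 4.72% (6 of 127) where the bright upstream gene lay on the other strand, 7.22% (7 of 97) where a bright same-strand gene lay downstream, and 2.51% (7 of 279) where the same-strand upstream gene was itself dim. For the other strand and for downstream the shares were 3.97% (6 of 151) and 5.0% (11 of 220) at 5 to 20 kb. At 20 to 50 kb they were 6.25% (15 of 240) and 3.7% (9 of 243), so the same-strand upstream share was not the highest at that distance.

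The upstream genes of these pairs were mostly not called. Of the 31, 6 were raised and 1 lowered. Ctsk, a protease gene of osteoclasts, was at 8.43, 8.35 and 8.51 in HS and 7.58, 7.19 and 7.30 in Cont and begins 1.97 kb past the end of Arnt, which was at 0.16. Agbl2 was at 6.86, 6.70 and 6.80 in HS and 5.90, 6.09 and 6.0 in Cont (0.79), 1.66 kb past Fnbp4 (-0.05, not called). Tbr1, a transcription factor gene of cortical neurons, was at 7.37, 7.25 and 7.25 in HS and 6.85, 6.36 and 6.49 in Cont (0.72), 2.49 kb past the proteasome gene Psmd14 (-0.04, not called). Rrh past Gar1 (0.69 and -0.09), Arl9 past Srp72 (0.65 and -0.05), Fscn3 past Arf5 (0.64 and 0.10) and Ccin past Glipr2 (0.73 and -0.01) had the same arrangement. In the separate arrays of HSF1-KD cells 31 of the 140 genes near a bright upstream gene were raised (22.1%), and in SSBP1-KD cells 21 (15%). Where the same-strand upstream gene within 5 kb was itself dim, the shares were 3.94% in HSF1-KD and 0.358% in SSBP1-KD. Whether the signal in these genes comes from transcripts that start upstream was not tested.

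**Figure D4:**
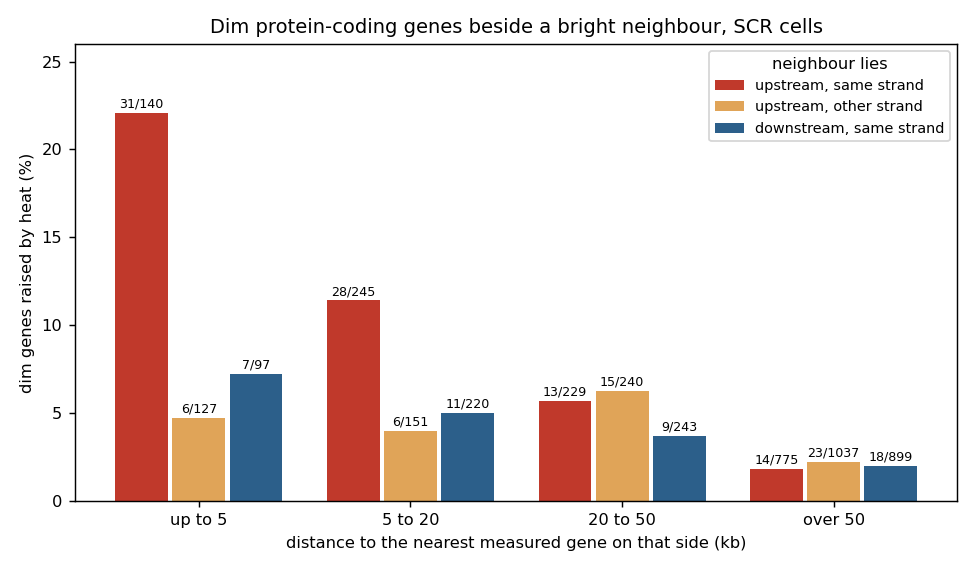
Share of dim protein-coding genes raised by heat in SCR cells (in percent, bars from 0), by distance in kb to a bright neighbour that is the nearest gene on that side, with counts of raised and all genes over each bar. The share is highest, 22.1%, for a bright same-strand gene that ends within 5 kb upstream.

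Gene length also differed between rises and falls. In the brighter part of the protein-coding genes, split into 5 equal bins by the length of the gene in the genome, the share lowered was 18, 17.1, 14.2, 11.4 and 8.52% going up in length, and the share raised was 10.1, 9.54, 11.2, 14.0 and 20.5%. The median length was 16.4 kb for lowered genes, 30.4 kb for raised genes and 19.2 kb for all. Past 1.5-fold both sets were short, with medians of 4.7 kb for lowered and 8.9 kb for raised genes. Calls depended on level too: in 4 equal bins of mean signal the share lowered was 1.73, 4.51, 12.9 and 14.2%, and the share raised 1.02, 4.13, 9.51 and 15.9%, going up in signal.

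The heat shock of the knockdown cells, on arrays of their own, shows which of these changes came back. Ssbp1 was at 9.02, 9.25 and 9.32 in SSBP1-KD Cont and 9.54, 9.36 and 9.36 in SCR Cont, and at 8.71, 8.57 and 8.67 in SSBP1-KD HS and 9.07, 9.09 and 9.03 in SCR HS, so it was lower in the knockdown in every array, with the smaller gap in Cont (means 9.2 and 9.42) and the larger in HS (8.65 and 9.06). No probe set carries Hsf1 as its only symbol, and its knockdown was not analysed here. In HSF1-KD cells 10.8% of all symbols were lowered and 10.6% raised by heat, and in SSBP1-KD cells 2.82% were lowered and 4.08% raised. Of the 1663 genes lowered in SCR cells, 1195 (71.9%) were called lowered in HSF1-KD and none was called raised, and 419 (25.2%) were called lowered in SSBP1-KD and 2 raised. The SSBP1-KD Cont arrays were the least even, with correlations down to 0.9846 within the group. Their mean absolute distance from the group mean was 0.0918 to 0.152, against 0.0709 to 0.0788 in the SCR arrays. Whether this spread has a part in the SSBP1-KD counts was not tested. Of the 129 lowered past 1.5-fold, 121 (93.8%) were called lowered in HSF1-KD and 106 (82.2%) in SSBP1-KD. The heat response itself differed between HSF1-KD and SCR in 0.346% of symbols and between SSBP1-KD and SCR in 0.492%. Of the 129 falls 1 differed in HSF1-KD, Ccnf (-0.32 in HSF1-KD against -0.76 in SCR, adjusted p = 0.00403), and 12 differed in SSBP1-KD.

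Most miRNA falls were found again, those past 1.5-fold almost entirely. Of all 80 lowered miRNA genes, 70 were called lowered in HSF1-KD and 62 in SSBP1-KD. Of the 44 past 1.5-fold, 43 were called lowered in HSF1-KD and 40 in SSBP1-KD, where 30.3% and 24.9% of all miRNA genes were lowered, and none had a response that differed from SCR. Their median was -1.34 in HSF1-KD, -1.01 in SSBP1-KD and -1.19 in SCR. Mir15b was at -2.94 in HSF1-KD, -2.69 in SSBP1-KD and -3.02 in SCR. Of the 14 lowered snoRNA genes 13 were called lowered in HSF1-KD and 12 in SSBP1-KD. Histones were lowered in 19 of 28 in HSF1-KD and 11 of 28 in SSBP1-KD, against 23 in SCR, with medians of -0.44, -0.25 and -0.66, and Zfp genes in 84 and 47 of 316, against 92 in SCR.

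Rises differed from SCR in the knockdowns more often than falls. Of the 118 rises past 1.5-fold, 47 had a different response in HSF1-KD and 44 in SSBP1-KD. These rises, like the falls, were picked in the SCR arrays that the difference also uses. Picking large SCR responses in this way favours smaller responses in the knockdown arrays, and how much it adds was not tested. Outside the chaperone and immediate-early lists the clearest were Snord14e (-0.03 in HSF1-KD against 2.76 in SCR, adjusted p of the difference 9.85e-09), Uspl1, which encodes a SUMO protease (0.06 against 1.53, adjusted p = 1.24e-06), and Ifitm5, a bone gene (0.01 against 0.90, adjusted p = 0.000169). Edn1, the endothelin precursor (-0.07 against 0.80), Slc5a3, a myo-inositol transporter (-0.12 against 0.76), Amotl2 (0.09 against 0.77) and Arrdc3 (0.03 against 0.65) also differed by the same test. Swt1 (0.03 against 0.84) and Trmt1l (0.02 against 0.71) are neighbours whose promoter windows overlap on opposite strands. Apart from Snord14e and Uspl1, these genes were chosen after their values were seen. By contrast, the rises of Best2 (1.97 against 2.01), Zfp36 (0.75 against 0.77) and Ctsk (0.88 against 1.07) had no called difference.

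**Figure D5:**
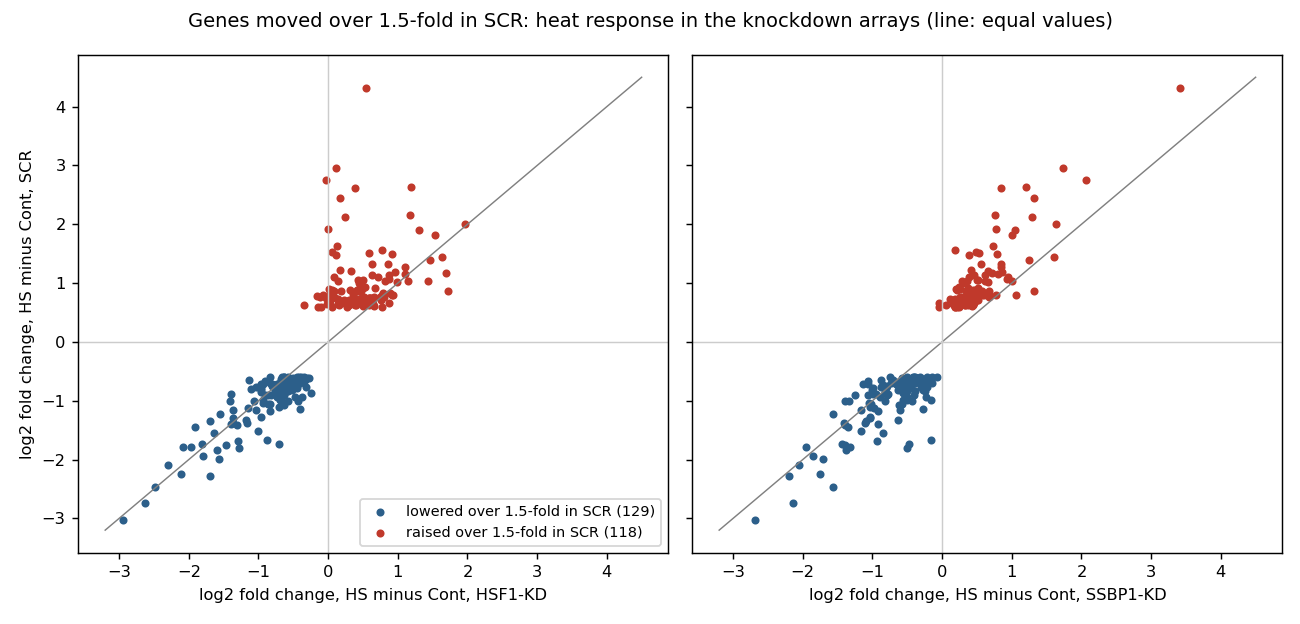
Log2 fold change with heat (HS minus Cont) in HSF1-KD cells, left, and SSBP1-KD cells, right, against that in SCR cells, for the 129 genes lowered (blue) and the 118 raised (red) past 1.5-fold in SCR cells, with 1 point per gene and the line of equal values. The falls lie along the line in HSF1-KD, where 121 were called again, while many rises sit near 0.

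Promoters from RefSeq, 250 bases before to 50 after the start of 15005 measured protein-coding genes, were searched on both strands for a heat shock element, 3 alternating GAA units each spaced by 2 bases. It was present in 0.553% of all promoters, in none of 57 promoters of genes lowered past 1.5-fold, and in 4 of 49 (8.16%) of raised genes whose response differed in HSF1-KD. These 4 were the chaperone genes Hspd1 and Hspe1, which share one promoter region, Hsph1 and, outside them, Kctd18. Kctd18, a gene of the BTB domain family, was at 7.99, 8.22 and 8.02 in HS and 7.69, 7.54 and 7.5 in Cont (0.50, adjusted p = 0.0002), with -0.14 in HSF1-KD (adjusted p of the difference 0.00817). Its promoter is shown because it holds 2 overlapping matches, in capitals, the first base of which lies 158 bases before the start (chr1:57970035-57970334, minus strand, GRCm38.p6).
Kctd18 promoter: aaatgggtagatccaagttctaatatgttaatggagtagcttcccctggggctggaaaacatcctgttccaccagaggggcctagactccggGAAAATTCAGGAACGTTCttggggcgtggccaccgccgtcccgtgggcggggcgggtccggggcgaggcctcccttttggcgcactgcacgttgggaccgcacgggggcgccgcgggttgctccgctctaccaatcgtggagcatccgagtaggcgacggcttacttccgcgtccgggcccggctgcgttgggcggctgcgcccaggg
The match is a description and not a measured binding site.

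Among the lowered promoters, TATAAA (the TATA box) was found in 26.3% and CCAAT in 64.9% of the 57 past 1.5-fold, against 13.8% and 41.8% of all promoters. The TATA share came from the histones, with 62.5% of 24, and was 12.5% in the 40 lowered promoters without them, where CCAAT was in 60.0%. TGANTCA (the AP-1 motif) was found in 2 of the 57 lowered promoters (3.51%) and in 8.10% of all. It was in 6 (11.8%) of the 51 promoters of genes raised past 1.5-fold outside chaperones and immediate-early genes. TGACGTCA (the cAMP response element) was in 4 of the 57 lowered (7.02%), 3 of those 51 (5.88%) and 2.73% of all. Calls depend on signal, and in the 7502 promoters of brighter genes the shares were 8.08% for TATAAA, 43.3% for CCAAT, 5.56% for TGANTCA and 3.76% for TGACGTCA.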

How the data were processed

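The series holds 18 Affymetrix Mouse Gene ST arrays in 6 groups of 3, and the 6 SCR arrays (HS and Cont) make up the comparison described. The authors deposited log2 signals per probe set, for which the submitters' processing notes list Partek 6.5 and RMA without their roles, and these were used as given; the raw scans were not analysed here. No column was left out. Arrays have no read depth, and precision is limited by how many there are.

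Of 35557 probe sets 21789 have 1 gene symbol, 1621 several and 12147 none. Where a symbol had several probe sets, the one brightest on average was kept, which left 19938 symbols, and 21698 probe sets matched a RefSeq gene table (GRCm38.p6). The fit was made with limma 3.58.1 (lmFit, eBayes) in R 4.3.3 over all 18 arrays with 1 mean per group, 12 residual and 2.36 prior degrees of freedom, and Benjamini-Hochberg adjustment over all probe sets; the difference of heat responses is the interaction. The fold of 1.5 is the study's. The methods in the text name Student's test or analysis of variance but no model for the arrays.

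The members and the gene lists were chosen with earlier results of these data known. Genes named were the 30 largest falls and, outside chaperones and immediate-early genes, the 15 largest rises with groups that do not overlap, up to 5 members of each list, genes the paper names, and genes said in the text to be chosen after their values were seen. Strands of genes came from the promoter table, and genes with no strand there were left out of the counts of hosts and neighbours. Replicate numbers did not pair the arrays: residuals of SCR arrays with the same number correlated at -0.0132 to 0.0931, and 6 of 45 same-number pairs over all groups exceeded 0.1. In simulated data with 200 changed genes for SCR HS minus SCR Cont over 19938 genes, 45 of 50 genes raised and 47 of 50 lowered 1.5-fold were recovered. Alternatives were other normalizations, filters, priors, tests, arrays in the fit, a replicate block, fold thresholds and leaving out each SCR array. Plots were made in Python 3.11.15 (matplotlib 3.10.9).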

Additional observations from a re-analysis of the deposited data

Results flagged for a closer look

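These results are given because the heat response of a knockdown differed from that of SCR cells by the limma interaction test, among the largest rises and falls that were named. The genes were picked by their SCR response and the test uses the same SCR arrays, which favours smaller responses in the knockdowns. Snord14e differed by -2.79 in HSF1-KD minus SCR (-0.03 against 2.76, adjusted p = 9.85e-09) and by -0.70 in SSBP1-KD minus SCR (2.06 against 2.76, adjusted p = 0.0283). Uspl1 differed by -1.47 in HSF1-KD (0.06 against 1.53, adjusted p = 1.24e-06) and by -1.04 in SSBP1-KD (0.49 against 1.53, adjusted p = 0.000182). Ephx3, an epoxide hydrolase gene, differed by -0.62 in HSF1-KD (adjusted p = 0.015) and by -0.55 in SSBP1-KD (adjusted p = 0.0361). Mir99ahg differed by -0.55 in HSF1-KD (adjusted p = 0.0252) and by -0.68 in SSBP1-KD (adjusted p = 0.00719), from the brightest of its probe sets.

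In HSF1-KD alone Cd3e differed by -0.69 (0.63 against 1.33, adjusted p = 0.0284). In SSBP1-KD alone the histone gene H3c15 differed by 1.49 (-0.16 against -1.66, adjusted p = 0.00424) and Cyp2c55 by -0.76 (0.56 against 1.32, adjusted p = 0.0366). H3c15 is the only fall among them, and its probes can read near-identical histone copies.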

How the results depend on the processing

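Of 149 counts recomputed under the settings other than leaving out single SCR arrays, 133 stayed within 1.5 times the reported value. Of 648 values of 45 named genes under 15 settings, left-out arrays included, 642 kept direction and side of the threshold and none reversed. With dim probe sets left out, 62 genes were lowered past 1.5-fold, 12 miRNA genes and 7 snoRNA genes were lowered, and 14 dim genes near a bright upstream gene were raised, since fewer genes were tested. With the 6 SCR arrays only, 33 solute carriers and 5 endoplasmic reticulum genes were lowered and 8 chromatin modifiers raised. By the methods' t-test 980 genes were lowered, 931 raised, 30 solute carriers and 4 endoplasmic reticulum genes lowered and 5 chromatin modifiers raised. At 1.3-fold 366 were lowered and 307 raised, and at 2-fold 43 and 41. The cause of these shifts beyond fewer tested genes or arrays was not tested.

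Leaving out each SCR array in turn gave 1180 to 1390 lowered and 1098 to 1390 raised genes, 127 to 132 and 115 to 129 past 1.5-fold, and 70 to 75 miRNA genes, 10 to 12 snoRNA genes, 22 to 23 histones, 69 to 76 Zfp genes, 33 to 40 solute carriers and 5 to 8 endoplasmic reticulum genes lowered. It gave 13 to 15 mRNA decay regulators, 10 to 15 chromatin modifiers and 26 to 30 dim genes near a bright upstream gene raised. Of SCR-lowered genes 937 to 1007 were called again in HSF1-KD and 345 to 374 in SSBP1-KD, and of SCR-raised genes 857 to 976 and 470 to 522. Endoplasmic reticulum genes were at 5 without SCR HS array 2 or 3, and solute carriers at 33 without SCR Cont array 2. With a replicate block 1586 genes were lowered and 1425 raised, and no count moved by over 1.5 times. Dleu2 lost its call by the methods' t-test (adjusted p = 0.143) and without HS array 1 (0.0953), HS array 2 (0.0804), Cont array 1 (0.11) or Cont array 3 (0.113). Mir99ahg lost it with the mean of its probe sets (0.20, adjusted p = 0.0975). Signals near the olfactory receptor level limit how deep a fall can be read.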

Other observations

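Probe sets without exactly 1 gene symbol moved past 1.5-fold more often than the symbols did, but were not called more often by adjusted p alone. Of 13768 such probe sets 607 were raised and 517 lowered past 1.5-fold, which is 8.16% of them, against 1.24% of the 19938 symbols. By adjusted p alone 1132 were raised and 974 lowered, against 1522 and 1663 of the 19938 symbols. Each symbol was read from its brightest probe set only, whereas all probe sets without exactly 1 symbol were counted. The probe sets without exactly 1 symbol were not followed further.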
